A study of Mus musculus with 6 samples.

Results

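Eomes is a transcription factor of the T-box family, and the regions described here are those where its immunoprecipitation signal in mouse natural killer (NK) cells lay directly over the start of a transcript and was seen in more than 1 experiment. Merging the intervals of 3 peak lists wherever they overlapped by 1 bp or more gave 84399 regions, of which 20126 held intervals from 2 or 3 lists. Each region took the annotation of its peak with the largest pileup, the whole-number height that the authors' lists give at a peak's summit. A region was a member when the distance from that peak to the nearest annotated transcript start was 0. This gave 6744 members, 33.5% of the reproducible regions, so the members were chosen by measured values, namely the presence of a peak, its extent and its pileup. Regions covering a start that were found in only 1 list, 3104 in number, are not members.

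The NK cells were purified from pooled spleen cells and expanded in culture for 4 days with IL-15 at 100 ng/mL. The mice were wild-type, of strain C57BL/6 and 8 to 12 weeks old. The labels do not say how many mice formed a pool. In each of 3 separate experiments, DNA immunoprecipitated with an antibody against Eomes formed the IP group and DNA that was not immunoprecipitated formed the input group, with 3 samples in each group. Every cell was wild-type and received IL-15, so no group lacks Eomes and no untreated group is compared. The labelled cell type could not be checked against marker expression, because peak lists hold no expression values. A peak from bulk chromatin cannot tell more bound cells apart from more binding per cell.

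A transcription start is where RNA polymerase II begins a transcript, and the promoter around it holds short DNA letters that transcription factors recognise. Many promoters of genes used in most cells lie in CpG islands, stretches rich in the dinucleotide CG, whereas many promoters of tissue-restricted genes are poor in it. Eomes and its relative T-bet (Tbx21) recognise letters close to AGGTGTGA, the T-box element, and in NK cells both factors are known for their part in development and cytotoxic function.

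The promoter sequences below surround starts that strong members cover, and a window can reach beyond its member or miss the summit. They are RefSeq windows of build GRCm38.p6, the assembly behind mm10, from 250 bases before to 50 bases after the gene's start, printed 5′ to 3′ along the gene's strand. The first group holds the T-box letters AGGTGTGA or their reverse complement TCACACCT, which are in capitals. These windows are on the plus strand at Dhrs9 (chr2:69380212-69380511), Rnf41 (chr10:128411366-128411665), Atxn7 (chr14:14012241-14012540) and Nkg7 (chr7:43436888-43437187), and on the minus strand at Rel (chr11:23770920-23771219). Each window ends in the gene's transcribed part.
Dhrs9: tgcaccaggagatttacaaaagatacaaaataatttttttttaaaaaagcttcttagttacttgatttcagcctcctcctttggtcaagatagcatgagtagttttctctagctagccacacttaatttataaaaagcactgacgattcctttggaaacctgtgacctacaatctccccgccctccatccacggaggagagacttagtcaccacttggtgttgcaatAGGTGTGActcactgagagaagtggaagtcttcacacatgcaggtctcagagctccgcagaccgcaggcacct
Rel: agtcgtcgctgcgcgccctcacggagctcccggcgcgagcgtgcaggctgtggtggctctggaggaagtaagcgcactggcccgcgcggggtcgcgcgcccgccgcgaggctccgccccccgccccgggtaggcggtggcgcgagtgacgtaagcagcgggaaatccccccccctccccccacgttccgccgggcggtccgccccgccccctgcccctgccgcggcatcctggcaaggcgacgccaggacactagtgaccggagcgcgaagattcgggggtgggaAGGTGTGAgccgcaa
Rnf41: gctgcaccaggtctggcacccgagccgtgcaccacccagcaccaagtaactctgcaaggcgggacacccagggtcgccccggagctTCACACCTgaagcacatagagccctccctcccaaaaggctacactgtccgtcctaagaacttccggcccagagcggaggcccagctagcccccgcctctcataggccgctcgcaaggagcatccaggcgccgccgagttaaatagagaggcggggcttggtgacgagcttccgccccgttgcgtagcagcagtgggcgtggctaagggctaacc
Atxn7: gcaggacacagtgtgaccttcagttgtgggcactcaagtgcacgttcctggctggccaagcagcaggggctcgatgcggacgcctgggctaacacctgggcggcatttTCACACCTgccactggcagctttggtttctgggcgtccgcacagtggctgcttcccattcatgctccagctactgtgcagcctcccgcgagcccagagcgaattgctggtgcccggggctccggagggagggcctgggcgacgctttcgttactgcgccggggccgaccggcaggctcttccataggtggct
Nkg7: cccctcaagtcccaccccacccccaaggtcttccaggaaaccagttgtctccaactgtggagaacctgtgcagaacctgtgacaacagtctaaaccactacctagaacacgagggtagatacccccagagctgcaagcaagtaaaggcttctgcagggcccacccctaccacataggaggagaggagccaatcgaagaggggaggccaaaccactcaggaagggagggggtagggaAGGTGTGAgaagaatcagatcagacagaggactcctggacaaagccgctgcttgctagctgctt
With the start base counted as 0, the T-box letters begin at −23 in Dhrs9, at 35 in Rel, at −164 in Rnf41, at −142 in Atxn7 and at −14 in Nkg7. Rel encodes a subunit of NF-kB, Rnf41 an E3 ubiquitin ligase, and Nkg7 a membrane protein of cytotoxic granules. The next group shows strong members whose windows hold no T-box letters. In Ccng2 (chr5:93267323-93267622, plus strand) and Wdfy2 (chr14:62837440-62837739, plus strand), capitals mark the ETS letters CCGGAAG, the GC box GGGCGGG bound by SP and KLF factors, and in Wdfy2 also the NRF1 letters GCATGCGC, on either strand. In Runx3 (chr4:135120395-135120694, plus strand) capitals mark the RUNX letters TGTGGTT on the reverse strand, and the window of Prf1 (chr10:61297586-61297885, plus strand) holds none of the 14 sets of letters searched. Wdfy2, Runx3 and Prf1 were chosen for printing after their values were seen. So was Nkg7, a gene of cytotoxic cells, shown in place of the stronger members with T-box letters over Duoxa2 and Hemgn.
Ccng2: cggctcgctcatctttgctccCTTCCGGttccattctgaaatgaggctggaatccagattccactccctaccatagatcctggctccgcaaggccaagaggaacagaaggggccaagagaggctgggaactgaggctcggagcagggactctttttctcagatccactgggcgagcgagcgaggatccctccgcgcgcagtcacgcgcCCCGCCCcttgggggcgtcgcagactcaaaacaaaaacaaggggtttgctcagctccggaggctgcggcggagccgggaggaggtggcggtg
Wdfy2: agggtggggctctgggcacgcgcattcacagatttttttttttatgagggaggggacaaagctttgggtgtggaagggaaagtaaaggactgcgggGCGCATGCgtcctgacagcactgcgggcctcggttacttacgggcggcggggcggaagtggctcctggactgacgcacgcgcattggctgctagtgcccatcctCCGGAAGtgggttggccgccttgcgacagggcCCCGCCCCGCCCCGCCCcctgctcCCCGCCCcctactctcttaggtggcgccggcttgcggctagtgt
Runx3: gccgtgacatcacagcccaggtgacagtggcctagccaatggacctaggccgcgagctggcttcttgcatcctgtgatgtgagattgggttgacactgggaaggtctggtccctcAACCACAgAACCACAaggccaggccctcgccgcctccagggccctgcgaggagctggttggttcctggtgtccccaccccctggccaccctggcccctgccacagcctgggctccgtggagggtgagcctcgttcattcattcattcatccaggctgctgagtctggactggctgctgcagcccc
Prf1: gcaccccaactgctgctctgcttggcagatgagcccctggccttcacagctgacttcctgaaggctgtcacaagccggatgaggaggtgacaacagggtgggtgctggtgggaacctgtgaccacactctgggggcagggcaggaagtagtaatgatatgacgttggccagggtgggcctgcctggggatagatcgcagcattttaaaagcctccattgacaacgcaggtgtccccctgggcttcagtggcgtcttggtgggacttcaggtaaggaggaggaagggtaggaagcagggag
Ccng2 encodes a cyclin, Runx3 a transcription factor of the RUNX family and Prf1 perforin, the pore-forming protein of cytotoxic granules. The folds of these members are given with their groups below.

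Of the 6744 members, 4457 (66.1%) had a peak in all 3 lists. The other 2287 were in 2 lists, 208 of them in those of experiments 1 and 2, 807 in 1 and 3, and 1272 in 2 and 3. Built without experiment 3, the set had 4165 members. Fold enrichment, the ratio of IP signal to background that the authors' lists give for each peak, had a median over members of 4.62, 5.36 and 5.34 in experiments 1, 2 and 3. Reproducible regions that lay within 1 kb of a start without covering it had medians of 4.30, 4.74 and 4.33. Those outside promoters, that is beyond 3 kb, had 4.69, 5.14 and 5.02. The members were also longer, with a median width of 521 bp against 387 bp for the 3526 regions within 1 kb and 341 bp for the 8230 outside promoters. Width, fold and number of lists come from the same peaks that chose the members, so these values are a description and were not tested.

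The strongest members were ordered by the mean over the 3 lists of each peak's percentile of −log10 q-value within its own list. The region over Tmem134, a gene for a transmembrane protein, ranked first, at chr19:4125288-4126019. Its fold was 26.6, 31.3 and 40.7 in experiments 1, 2 and 3 (mean 32.9 ± 7.16, SD, n = 3), the highest member fold in each list. The Ccng2 region (chr5:93266904-93267776) followed with folds of 26.1, 30.9 and 28.5. Its spread was smaller, at 28.5 ± 2.43 (SD, n = 3).

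Bhlhe40, a helix-loop-helix repressor that restrains IL-10 in lymphocytes, came next (chr6:108659986-108660907). Its fold was 25.02, 29.7 and 18.95. The Smc5 region, over the gene for a subunit of a chromosome repair complex, had folds of 18.2, 26.01 and 28.5. Experiment 3 was therefore the lowest value for Bhlhe40 and the highest for Smc5.

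Ncbp3, which encodes an mRNA cap-binding protein, had folds of 16.8, 29.3 and 33.0, and Foxj3, a forkhead factor gene, had 14.9, 30.6 and 33.9. In both, experiment 1 was well below the other 2 experiments. Creb1, the gene for the cAMP response factor CREB, had similar values of 18.4, 21.9 and 20.3. The member over Dhrs9, a short-chain dehydrogenase gene whose window is printed above, had folds of 21.5, 30.9 and 18.1. The other 12 of the 20 leading members had mean folds between 18.3 and 24.2, and included Vgll4 (21.9 ± 3.92, SD, n = 3), a cofactor of TEAD factors, and Bard1 (20.6 ± 2.46, SD, n = 3), the partner of BRCA1 in DNA repair.

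**Figure D1:**
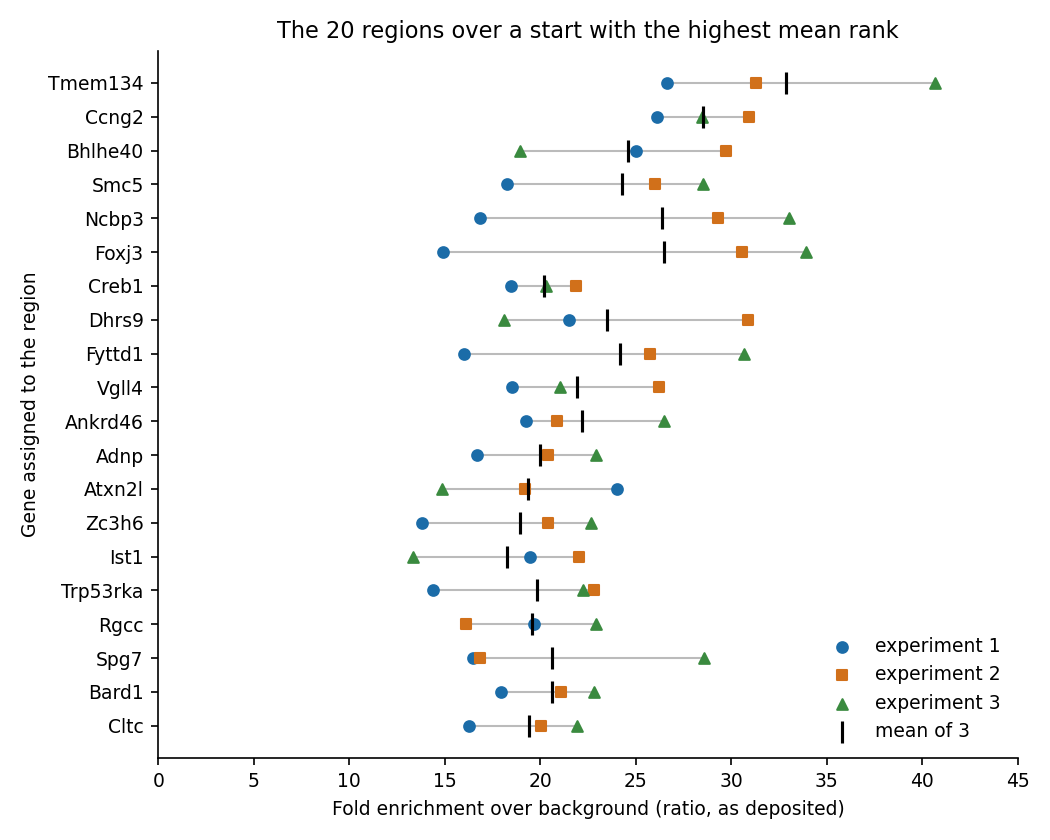
Fold enrichment in each experiment (horizontal axis, ratio as deposited) for the 20 members with the highest mean rank; coloured points are experiments 1 to 3 and the black tick is their mean. Tmem134 reaches 40.7 in experiment 3, and experiment 1 is the lowest point for Ncbp3 and Foxj3.

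Among the 4457 members in all 3 lists, the mean fold had a median of 5.48, with quartiles of 4.69 and 6.80. A mean fold of at least 10 was reached by 263 members and one of at least 20 by 15. The coefficient of variation of the fold over the 3 experiments had a median of 22.9%, with quartiles of 14.8% and 31.8%. The highest of the 3 folds came from experiment 3 in 2048 members, from experiment 2 in 1741 and from experiment 1 in 668.

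The order of the members by fold was shared only in part. Spearman's rho across the 4457 members was 0.40 between experiments 1 and 2, 0.42 between 1 and 3 and 0.45 between 2 and 3. Across the 5871 other reproducible regions found in all 3 lists it was 0.54, 0.60 and 0.57 for the same pairs. These are correlations across regions, which are not independent replicates, and their difference was not tested. Peaks also share the local background of the chromatin they lie in.

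Of the 1900 members in all 3 lists whose mean percentile was at least 80, Zfp568, a zinc finger gene, varied least. Its folds were 8.72, 8.61 and 8.67 (8.67 ± 0.051, SD, n = 3). Zgpat and Sike1 came next, with mean folds of 6.10 and 5.55 and coefficients of variation of 0.769% and 0.919%. The member over Tpp2, which encodes a large peptidase, varied most, with folds of 5.16, 4.50 and 17.7. Pik3cd, the gene for the leukocyte PI3-kinase subunit p110δ, had 4.30, 5.41 and 14.6, and Dcaf11 had 3.89, 4.42 and 11.8. For all 3, experiment 3 stood alone above experiments 1 and 2.

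The widest member, 5927 bp at chr17:39842956-39848882, carried no gene symbol in the lists. It had pileups of 291, 274 and 329 with folds of only 2.20, 2.87 and 1.71, so the background was high there as well. It overlaps the RefSeq gene Rn18s-rs5 (chr17:39846354-39848202), a ribosomal RNA related sequence annotated as a pseudogene. The next in width lay over Klf13, a Krüppel-like factor gene (2897 bp, mean fold 7.36 ± 1.80, SD, n = 3, or 4.89 over the regions formed without experiment 3), and over Anp32a (2271 bp, 6.24 ± 1.11, SD, n = 3).

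The members carried 6369 different symbols, and 35 had none. More than 1 member was assigned to 311 symbols, with 4 for Tfeb, a regulator of lysosome genes, and 3 each for Arhgef2 and Hnrnpf. At the edge of the rule, the start lay within 10 bp of the interval's end in 245 members and within 50 bp in 1211. Just outside, 119 reproducible regions ended within 10 bp of a start and 517 within 50 bp. Examples inside the edge were Sertad2 (mean fold 4.62) and Rpain (5.34). Examples 1 bp outside were Washc3 (3.39) and Nampt (3.61).

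Whether a region over a start is found again was asked of an experiment that took no part in choosing it. Regions were built from 2 lists at a time, split by whether they covered a start, and looked up in the remaining list. A peak was found again in experiment 1 for 77.9% of 5756 covering regions and 66.7% of 8790 others. In experiment 2 the shares were 84.6% of 5254 and 63.0% of 9348, and in experiment 3 they were 95.01% of 4165 and 84.9% of 7485. Covering regions were found again more often in 3 of 3 experiments, by 14.3 ± 6.35 percentage points (SD, n = 3). An exact two-sided sign-flip test over the 3 experiments gave p = 0.25, the smallest value that 3 experiments allow. The 3 differences, here and for the strength below, are not independent, because each list also built regions in the other 2 comparisons. With peaks of a −log10 q-value of at least 3 the difference was 6.98 points.

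Width moved with this difference. In the 3 builds the covering regions had median widths of 522, 523.5 and 431 bp against 369, 365 and 333 bp for the others. Among regions of 400 to 600 bp only, a comparison chosen after seeing the data, the shares were 77.0% against 75.3%, 85.1% against 73.4% and 97.1% against 92.1%, a difference of 6.15 percentage points. The local background also differed: in the full set it lay above the list's lowest background value for 90.2%, 73.3% and 82.5% of the members' peaks and for 83.0%, 70.5% and 76.5% of the peaks in other reproducible regions. The part of the background in the recovery was not tested.

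The strength of the peaks that were found again was compared as well. Their median percentile of −log10 q-value in the held-out list was 78.2 for covering regions and 85.2 for others when experiment 1 was held out. It was 79.2 and 80.8 for experiment 2, and 85.6 and 87.9 for experiment 3. The difference was −3.63 ± 2.90 percentile points (SD, n = 3) and negative in 3 of 3 experiments, with an exact two-sided sign-flip p of 0.25, again the smallest possible. Among regions of 400 to 600 bp only, a comparison chosen after seeing the data, the difference was −5.32 points. Averaged over the comparisons that held out experiments 2 and 3 only, the difference over regions of all widths was −1.97 points, with regions still built partly from experiment 1. Only peaks found again enter this comparison, and they were a larger share of the covering regions (a mean of 85.8% against 71.6%), so it does not compare the strength of all regions. Over all members the median percentiles were 74.9, 72.8 and 80.9 in the 3 lists, and over regions outside promoters 75.7, 69.5 and 78.0.

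The summit of the annotating peak lay close to the start and on average slightly upstream of it. Its median position was −22 bp, with quartiles of −85 and 50 bp, and 58.3% of summits were upstream. Within 50 bp of the start lay 37.1% of summits, within 100 bp 65.0% and within 250 bp 91.1%. The medians in the 3 lists taken alone were −22, −18 and −23 bp. From the weakest to the strongest of 4 equal groups of members the median moved from −1 to −18, −27 and −37.5 bp. Because a member has to cover its start, nearness to the start is set by the rule, whereas the side on which the summit falls is not.

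**Figure D2:**
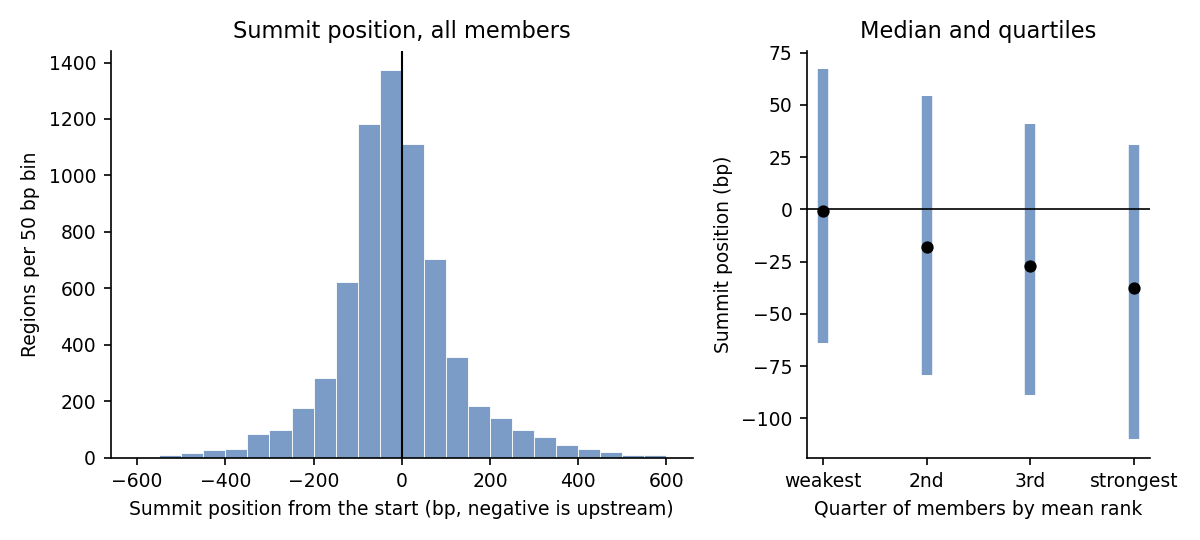
Left, number of members (vertical axis) by position of the summit from the start in bp, negative values lying upstream, in bins of 50 bp; right, median (point) and quartiles (bar) of that position in 4 equal groups of members ordered by mean rank. The distribution peaks just upstream of the start, and the median falls from −1 bp in the weakest group to −37.5 bp in the strongest.

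A RefSeq gene start lay inside 4923 members (73.0%), since the lists' transcript starts and RefSeq's gene starts are not the same set. Of these members, 807 (16.4%) held the starts of at least 2 genes. In 789 (16.0%) starts lay on opposite strands, with a median gap of 112 bp between the nearest starts of the 2 strands. In 647 of these the genes ran away from each other. For such a region the lists name 1 gene, while the signal lies over both.

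Covered starts were rich in CpG. Of 32851 RefSeq promoter windows, 6268 (19.1%) had their start inside a member. The covered windows held a median of 24 CpG dinucleotides in 300 bases against 5 in the others, and their GC content was 63.3% against 50.3%. The share covered was 0.392% for windows with 0 to 4 CpG, 4.10% for 5 to 9 and 18.6% for 10 to 14. It was 57.2% for windows with 30 to 34 CpG and 34.9% for those with 40 to 67. Each list alone followed the same course, with a maximum at 30 to 34 CpG of 41.0%, 48.4% and 62.7%. The fall above 40 CpG was present in all 3 lists, at 22.6%, 31.0% and 41.1%.

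**Figure D3:**
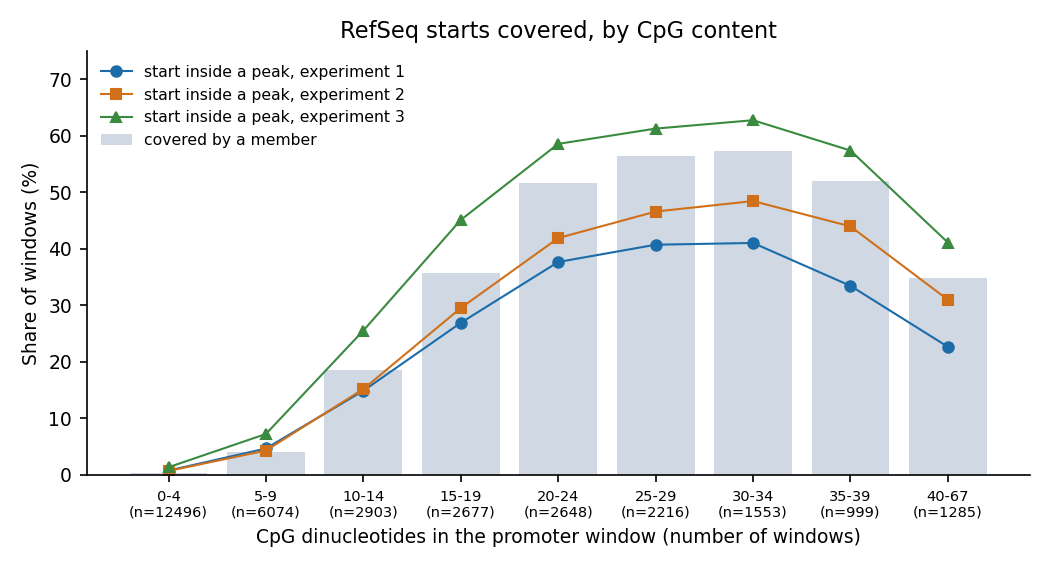
Share of RefSeq promoter windows (vertical axis, %) whose start lay inside a member (bars) or inside a peak of each list alone (lines), by the number of CpG in the window. Coverage is under 1% of windows with 0 to 4 CpG by members, highest at 57.2% for 30 to 34 CpG and lower again at 34.9% for 40 or more.

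Protein-coding genes and chromosomes differed as well. A start was covered for 26.8% of protein-coding windows and 4.93% of the 11588 other windows. By symbol, 6422 members (95.2%) matched a protein-coding RefSeq gene, and 6089 of 21887 such genes (27.8%) had a start covered by a member, or 3845 without experiment 3. On the X chromosome 77 of 966 genes (7.97%) were covered, against 6012 of 20665 (29.1%) on the autosomes. The labels do not state the sex of the mice, and the part of X copy number was not tested.

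In all, 14 sets of known factor letters were searched on both strands of the windows, each as an exact string, so a match is a description and not a binding site. The ETS letters CCGGAAG were in 25.9% of covered windows and 4.85% of the other windows, and in 8.86% of all windows. The ETS family includes Ets1, which NK cells need for their development. The excess held within classes of CpG content: 10.7% against 2.25% with 0 to 9 CpG, 25.8% against 10.6% with 10 to 23, and 27.3% against 10.4% with 24 or more. In each list alone the starts inside peaks exceeded those outside by 19.5, 20.4 and 18.5 percentage points (mean 19.4 ± 0.965, SD, n = 3). Of all windows with the ETS letters, 55.7% were covered.

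The T-box letters AGGTGTGA were rare at covered starts. They were in 55 of 6268 covered windows (0.877%), in 1.37% of the others and in 1.28% of all windows. Starts inside a peak held them less often than starts outside in each list, by −0.241 ± 0.124 percentage points (SD, n = 3), with an exact two-sided sign-flip p of 0.25. Within classes of CpG content the direction turned: 2.68% of covered windows against 1.72% of others with 0 to 9 CpG, 1.09% against 0.817% with 10 to 23, and 0.560% against 0.221% with 24 or more. With peaks of a −log10 q-value of at least 3 the difference over all windows was −0.149 points and no longer had the same direction in every list (exact two-sided sign-flip p = 0.5). With the shorter letters GGTGTGA it was 0.046 points. The class richest in CpG rests on 19 covered and 7 other windows. The same difference over the 3 lists alone was 2.56, 0.318 and 0.326 percentage points in these classes, given without a test.

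T-box letters were more frequent in the windows of strong members. This comparison of strength groups was chosen after seeing the data, so it is a description with no test. Of the 630 windows in the strongest of 10 equal groups of members, 2.86% held AGGTGTGA, and none of the windows in the weakest 3 groups did. The strongest 10% of peaks over a RefSeq start held the letters in 3.49%, 3.23% and 3.19% of windows in the 3 lists, and the weaker 50% of peaks in 0.657%, 0.824% and 0.685%. The difference of 2.58 ± 0.223 percentage points (SD, n = 3) was positive in 3 of 3 lists. RUNX letters differed in the same direction, by 2.69 ± 0.971 points, and ETS letters by 5.10 ± 3.34 points. The letters of NRF1, a factor of nuclear genes for mitochondria, differed the other way, by −2.08 ± 1.36 points (SD, n = 3 lists for each of these values).

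Position gave a further description. In the 55 covered windows the T-box letters lay a median of 42.5 bp from the summit, and 54.5% of them were within 50 bp. For the ETS letters the median was 63 bp with 41.6% within 50 bp, and for the cAMP response element TGACGTCA it was 59.5 bp. The GC box lay a median of 95 bp away and the TATA letters 158 bp. Over all covered windows, with or without any of these letters, every base lay a median of 117 bp from the summit, with 23.3% within 50 bp. In the windows printed above, the middle of the T-box letters lay 8.5 bp from the summit in Rnf41, 9.5 bp in Atxn7, 19.5 bp in Rel, 77.5 bp in Dhrs9 and 185.5 bp in Nkg7. Such windows were printed only where the member's region overlapped the T-box letters, so this nearness is partly set by that choice. The middle of the ETS letters lay 87 bp from the summit in Ccng2 and 287 bp in Wdfy2. That of the first RUNX letters in Runx3 lay 424 bp away.

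For several other letters the difference between covered and other windows shrank or turned among windows rich in CpG. The GC box was in 53.6% of covered and 19.0% of other windows, but among windows with 24 or more CpG in 62.8% and 67.4%. YY1 letters AAGATGGCG were in 3.81% and 0.835%, and in the CpG-rich windows in 3.92% and 2.30%. TATA letters were in 5.22% of covered and 15.6% of other windows, and in the CpG-rich windows in 3.802% and 2.84%. RUNX letters went from 3.61% against 5.66% in all windows to 2.42% against 1.199% in the CpG-rich ones.

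**Figure D4:**
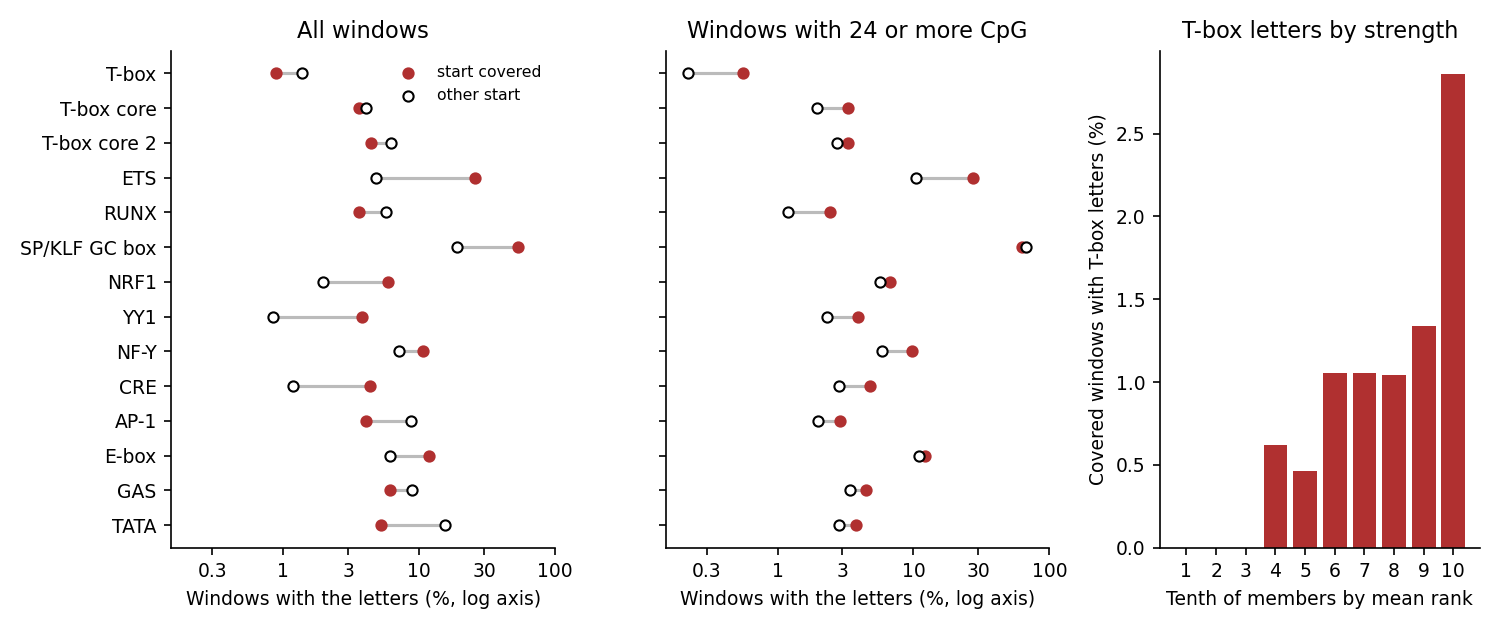
Share of promoter windows holding each set of letters (log axis, %) where the start was covered (filled) or not (open), in all windows (left) and in those with 24 or more CpG (middle); right, share of covered windows with T-box letters in 10 equal groups of members from weakest to strongest. T-box letters are rarer at covered starts in all windows and more frequent in the CpG-rich ones, and rise to 2.86% in the strongest group.

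Gene groups of NK cells were compared with the 27.8% of all protein-coding genes that were covered, whose members had a median mean fold of 5.14. Of 36 transcription factor genes of NK cells and innate lymphoid cells, 23 (63.9%) were covered, with a median fold of 5.53. Bhlhe40 led, followed by Runx3 (chr4:135119822-135120713) with folds of 16.2, 18.2 and 18.8. Runx1, another RUNX factor gene, had 13.4, 15.2 and 12.8. Runx3 and Runx1 had mean folds of 17.7 ± 1.36 and 13.8 ± 1.26 (SD, n = 3). Runx2, the other RUNX gene, named after its values were seen, had folds of 13.5, 8.73 and 10.8, with a larger SD of 2.39 (n = 3). Of the 13 that were not covered, 12 had a reproducible region elsewhere. By RefSeq gene start in place of the lists' transcript starts, 12 of the 36 had a start inside a member and 15 inside any reproducible region. The windows of this list held a median of 24.5 CpG. By RefSeq gene start inside a member, protein-coding windows with 20 to 24 CpG were covered at 53.8%, a different measure from the 63.9% by symbol.

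Of 20 genes of the cytotoxic machinery, 13 (65.0%) were covered, with a median fold of 5.18. The Prf1 region (chr10:61297456-61297882) had folds of 12.3, 12.7 and 13.4. Nkg7 had 11.03, 8.88 and 7.63, and Ctsc, the gene for the protease that activates granzymes, had 5.90, 10.4 and 7.56. Prf1 was thus nearly the same in each experiment, while Nkg7 was highest in experiment 1 and Ctsc in experiment 2. The windows of this list held a median of 6.5 CpG, below the 24 of covered windows in general. Of the 7 genes not covered, 6 had a reproducible region elsewhere, and without experiment 3 the count of covered genes was 7.

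Cytokine receptors and their signalling chains were covered for 21 of 29 genes (72.4%), with a median fold of 5.78. By RefSeq gene start, 15 of the 29 had a start inside a member. The windows of this list held a median of 15 CpG, and protein-coding windows with 15 to 19 CpG were covered at 38.8% by that same measure. Il12rb2, a chain of the IL-12 receptor, had folds of 13.2, 17.5 and 14.3. Il2rb, the β chain shared by the receptors for IL-2 and IL-15, had 13.9, 13.6 and 12.8. The Il2rb values lay within 13.4 ± 0.586 (SD, n = 3). Of 14 cytokine and chemokine genes, only Il16, Osm, Tgfb1 and Ltb were covered (28.6%), near the background share, with mean folds of 4.03 to 4.89, and 9 others had a region elsewhere. By RefSeq gene start, 4 of the 14 also had a start inside a member. The windows of these genes held a median of 8 CpG, and 7.24% of protein-coding windows with 5 to 9 CpG were covered by that measure. The part of CpG content was not tested.

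NK cell receptors and adaptors were covered at 8 of 34 genes (23.5%), near the 27.8% of all protein-coding genes. Fcer1g, a signalling adaptor of Fc and NK receptors, had folds of 6.08, 8.04 and 11.3. Ncr1, the gene for the NK receptor NKp46, had 11.1, 6.50 and 7.81, and Klre1, a lectin-like receptor gene, had 5.11, 8.41 and 9.03. Experiment 1 was the highest for Ncr1 and the lowest for Fcer1g and Klre1. The count was 5 without experiment 1 or without experiment 3, and 4 when a RefSeq gene start had to lie inside the region. Among the 26 genes not covered, 11 had a reproducible region elsewhere and 15 had none. The windows of this list held a median of 3 CpG, and by RefSeq gene start 0.762% of protein-coding windows with 0 to 4 CpG were covered.

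Genes used in most cells were covered more often than the 27.8% background. The counts were 42 of 54 splicing factor genes (77.8%), 53 of 84 cytosolic ribosomal protein genes (63.1%) and 47 of 78 mitochondrial ribosomal protein genes (60.3%). They were 31 of 56 translation initiation genes (55.4%), 45 of 92 genes of the respiratory chain and ATP synthase (48.9%) and 19 of 39 proteasome genes (48.7%). The median folds of these 6 lists lay between 4.90 and 5.70, around the 5.14 of all covered genes. Their windows held medians of 19 to 26 CpG. By RefSeq gene start, protein-coding windows with 15 to 19, 20 to 24 and 25 to 29 CpG were covered at 38.8%, 53.8% and 57.0%. The part of CpG content in the shares of these lists was not tested. Without experiment 3 the splicing, cytosolic ribosomal and respiratory lists had 26, 33 and 26 covered genes. Single members stood higher. Cox7a2, a subunit of cytochrome c oxidase, had folds of 15.3, 14.8 and 17.1. The initiation factor gene Eif5b had 11.9, 9.52 and 16.2, and the proteasome gene Psmd7 had 12.4, 11.6 and 11.7. Rpl37, for a protein of the large ribosomal subunit, had 11.5, 11.6 and 11.3, a spread of 0.148 (SD, n = 3) around 11.5.

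Chromatin modifiers were covered at 17 of 30 genes (56.7%), led by Kmt2a, a histone H3 lysine methyltransferase gene, with folds of 15.8, 13.3 and 16.0. Of genes for DNA replication and mitosis 20 of 32 (62.5%) were covered. The windows of the chromatin list held a median of 33.5 CpG and those of the replication and mitosis list 24. By RefSeq gene start, 14 of the 30 chromatin genes and 15 of the 32 replication and mitosis genes had a start inside a member. By that same measure, protein-coding windows with 30 to 34 CpG were covered at 58.5% and those with 20 to 24 at 53.8%. Mcm7, a subunit of the replicative helicase, had folds of 7.19, 10.8 and 13.3, and the licensing factor gene Cdc6 had 7.51, 8.57 and 10.2. In both, the order of the 3 experiments was the same, with experiment 3 the highest.

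Genes listed for other cells, some of which NK cells also use, were covered at or below the background, which was not matched for CpG content. Of 19 T cell genes 4 (21.1%) were covered, namely Cd28, Zap70, Lck and Lat, and Zap70, a kinase that NK cells also use, had folds of 5.74, 6.46 and 7.39. Bank1 and Pax5 were the 2 of 15 B cell genes (13.3%), or 1 without experiment 1 or without experiment 2. Cebpa, Itgam, Itgax and Cebpb were the 4 of 17 myeloid genes (23.5%), or 2 without experiment 2 or without experiment 3. Grin1 was the 1 of 20 liver and neuronal genes (5%), with folds of 3.83 and 3.88 in experiments 1 and 2 and no peak in experiment 3. None of 1110 olfactory receptor genes, 353 vomeronasal receptor genes and 53 keratin genes was covered, and their windows held medians of 1, 1 and 5 CpG. The windows of the T cell, B cell and myeloid lists held a median of 4 CpG each, and those of the liver and neuronal list 5. By RefSeq gene start, 0.762% of protein-coding windows with 0 to 4 CpG and 7.24% of those with 5 to 9 were covered. The part of CpG content in the shares of these lists was not tested.

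In the T-box family 2 of 17 genes (11.8%) were covered. Over a start of Eomes itself (chr9:118478420-118479251) lay a member with folds of 5.26, 6.03 and 6.14 (5.81 ± 0.482, SD, n = 3). The other, Tbx3, had folds of 4.38 and 4.74 in experiments 1 and 2. Tbx21, the gene for T-bet, singled out here after its value was seen, had no member over its start. No gene of the family had its RefSeq gene start inside a member, and 1 of the 2 was covered without experiment 1 or without experiment 2.

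**Figure D5:**
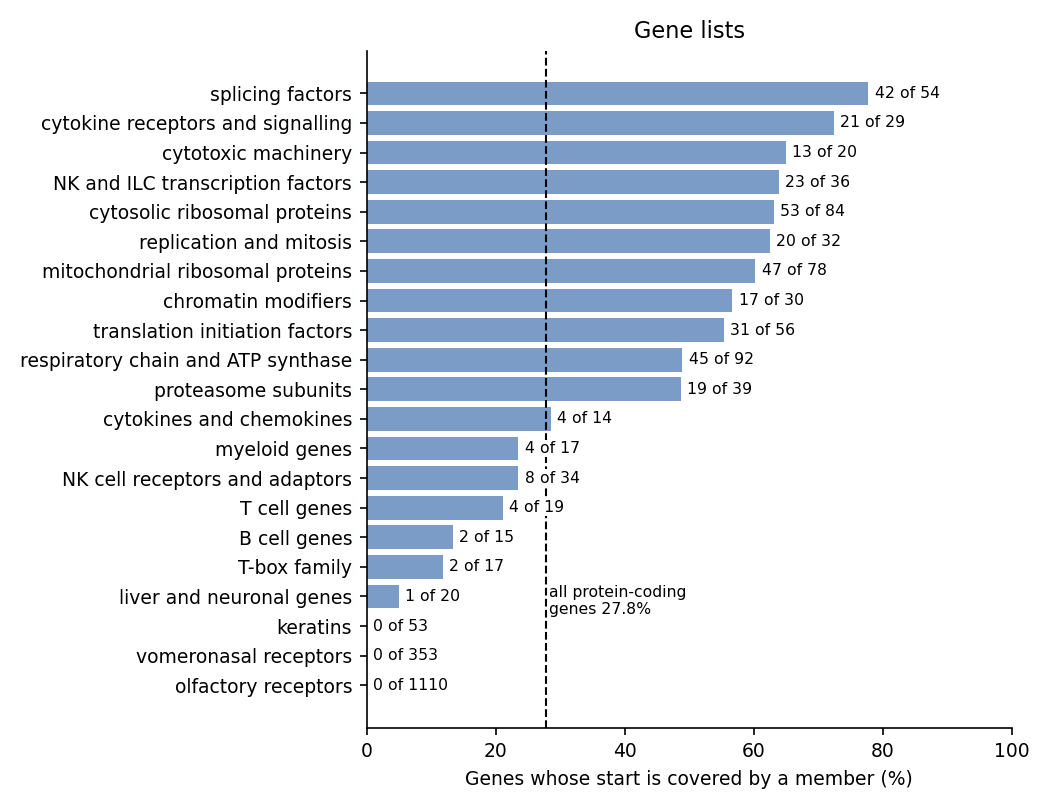
Share of the genes in each list whose start was covered by a member (horizontal axis, %), with the counts beside the bars; the dashed line is the 27.8% of all protein-coding genes. Splicing factors are highest with 42 of 54, NK cell receptors and adaptors lie near the line with 8 of 34, and 3 lists of receptors and keratins have none.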

How the data were processed

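Eomes IP and input DNA from 3 experiments was sequenced, and each IP was paired with its own input, per the labels. Per the submitters' processing notes the build was mm10 and the tools included Novoalign and ChIPseeker, without versions. Not given in the sources used here were the peak caller, the transcript set behind the distances and the depth of each library. Pileup, the score of a peak's height in the deposited lists, had minima of 8, 7 and 9, so weaker signal was not detectable. Fold enrichment is a ratio from the authors' peak caller, used as deposited. The −log10 p-values and −log10 q-values are the authors' own, and only the q-values were used, as percentiles within each list. Interval positions are used as deposited.

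Intervals sharing 1 bp were merged with pandas 2.3.3, and bedtools gave the same 84399 regions. Genes were matched by symbol to RefSeq GRCm38.p6, and sequence came from 32851 RefSeq promoter windows. The members, the 21 gene lists and the 14 sets of letters were chosen with earlier results of these data known. Gene lists are described by counts. An exact sign-flip test over experiments was run on recovery and strength in the held-out experiment and on the T-box letters, which were themselves chosen with earlier results known. Other letters, and comparisons chosen after seeing the data, are given without a test. The local background of a peak was recovered as (pileup + 1) / fold − 1. Named members were the 20 highest in mean percentile, the 3 widest, the 3 least and 3 most varying with a mean percentile of at least 80, those next to the edge of the rule, and up to 3 leading members per gene list. Alternatives were stricter q-values, another overlap, annotation by q-value or by any peak, all 3 lists, RefSeq starts, other letters, CpG classes and leaving out each experiment. The merging was tested on simulated data. Nothing says whether the mice of the 3 experiments were independent beyond their being separate experiments.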

Additional observations from a re-analysis of the deposited data

How the results depend on the processing

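The counts of members and of covered genes depended most on experiment 3, the list with the most intervals: leaving out each experiment in turn gave 4165 to 5756 members and 3845 to 5271 genes, the lowest without experiment 3. Requiring all 3 lists left 4457 members. Under the other alternatives the counts lay within 1.5 times of 6744 and 6089. The recovery and the strength in the held-out experiment kept their direction under every alternative run. Dropping the comparison that held out each experiment in turn gave 10.6 to 16.4 and −4.65 to −1.97 percentage or percentile points. The comparisons that remained still built their regions partly from that experiment, so it was not left out entirely. With −log10 q-values of at least 3 the recovery difference was 6.98. The T-box difference of −0.241 points was −0.289 to −0.171 without each experiment and turned positive with the letters GGTGTGA (0.046), in windows with at least the median CpG count of covered windows (0.326), and, added after seeing the data, with 0 to 9 CpG (2.56) and 10 to 23 CpG (0.318). For GGTGTGA it was −0.039 to 0.112 without each experiment, the lowest without experiment 2. In the CpG-rich windows the direction also turned for AGGTGTG (0.980), RUNX (0.884), the GC box (−4.58), AP-1 (0.505), GAS (0.887) and TATA letters (0.599); beyond the change of windows the cause was not tested. Some gene lists moved. NK receptors had 5 covered genes without experiment 1 or 3 or with all 3 lists. With a RefSeq gene start inside any reproducible region, member or not, NK receptors had 4 and NK transcription factors had 15. Cytotoxic genes had 7 without experiment 3. Without experiment 3, splicing, cytosolic ribosomal and respiratory genes had 26, 33 and 26. No paired analysis was possible because each experiment gave 1 peak list made from its IP and input together, and the background recovered for a peak is the caller's value at called peaks, not a measurement of the input sample.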
